A study of Mus musculus with 6 samples.

Results

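Genes for immune checkpoint ligands and for the "don't eat me" signal, through which a cell restrains or stimulates T cells and phagocytes, were examined, 10 of the 13912 genes in the table. They were chosen by name from knowledge of these pathways, and all 10 were found in the table. Of these, 6 belong to the B7 family, namely Cd274 (PD-L1), Pdcd1lg2 (PD-L2), Cd80, Cd86, Icosl and Cd276. Pvr, the nectin-like poliovirus receptor, and Lgals9, a galectin, bind other checkpoint receptors. Cd47 encodes the "don't eat me" protein that a phagocyte reads through its receptor, encoded by Sirpa.

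The samples were 4T1-Luc2-RFP cells. 4T1 is a line of mammary carcinoma (strain balb/c), here with luciferase and a red fluorescent protein in both groups. One group was the line kept in culture and not injected (3 libraries), and the other was cells isolated by fluorescence-activated sorting from tumours of the mammary gland (3 libraries), which the labels call MIND tumours and whose titles carry the word Right. The sources used here give no age, time after injection or gate of the sort. The labels do not say that libraries of 1 group came from separate cultures or animals, and every p-value therefore reflects the scatter among the libraries at hand, some or all of which may be technical. Growth in the gland, dissociation and sorting belong to the same group and cannot be told apart.

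In checkpoint signalling, a ligand on a tumour or antigen-presenting cell engages a receptor on a lymphocyte and raises or lowers the threshold of its activation. PD-L1 and PD-L2 bind PD-1 and inhibit, whereas CD80 and CD86 activate through CD28 and are taken up by CTLA-4. PD-L1 is known to be induced by interferon gamma through JAK and STAT proteins and the factor IRF1, and in tumours it is made by carcinoma cells and by myeloid cells alike. CD80 and CD86 are typical of dendritic cells and macrophages, and SIRP alpha of myeloid cells and neurons, while CD47 is made by nearly all cells.

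Promoter stretches of 3 genes are shown because the genes rose in the tumour libraries and are known as responsive to interferons. RefSeq promoter entries (GRCm38.p6, 250 bases before to 50 after the start) were matched for 7 of the 10 genes. The stretch from 125 to 31 bases before the start is given 5′ to 3′ on the gene's strand, with capitals for matches to the core of the interferon-stimulated response element. They are Cd274 at chr19:29367313-29367407 (plus strand), Lgals9 at chr11:78984955-78985049 (minus strand) and Pdcd1lg2 at chr19:29410794-29410888 (plus strand).
Cd274: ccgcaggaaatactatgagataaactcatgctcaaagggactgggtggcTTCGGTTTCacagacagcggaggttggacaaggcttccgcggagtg
Lgals9: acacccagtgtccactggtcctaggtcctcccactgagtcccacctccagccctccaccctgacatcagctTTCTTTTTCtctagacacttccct
Pdcd1lg2: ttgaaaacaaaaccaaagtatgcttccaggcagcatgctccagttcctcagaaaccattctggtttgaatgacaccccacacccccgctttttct
The core was searched as GAAANNGAA on both strands of the whole entries, and both matches above lie on the strand opposite to the gene. It was present once in the entry of Cd274, beginning 76 bases before the start, and at 2 places in that of Lgals9, of which the first begins 54 bases before the start. The entries of Pdcd1lg2, Cd80, Cd47, Icosl and Cd276 held no match, and 8.56% of all 32851 promoter entries held at least 1. The gamma-activated site, searched as TTCNNNGAA, was in none of the 7 genes' entries and in 8.3% of all. A match is a run of letters, not evidence of a bound factor. The entries also differed in base composition, with a GC content of 78.3% for Cd276 and 46% for Pdcd1lg2, against a median of 52.7% over all entries.

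Of the 10 genes, 8 were higher in the tumour libraries (limma, Benjamini-Hochberg adjustment over all genes, threshold 0.05), 0 were lower and 2 did not pass. Over all genes tested, 29.5% were called higher and 18.8% lower. In 9 of the 10 genes no cultured and tumour library overlapped, with the tumour libraries above in 8 and below in 1, and over all genes this was so in 34.6% and 25.2%. Part of these counts follows from how the table was made. No gene in it had fewer than 61 reads over the 6 libraries, and Pdcd1lg2, Cd80, Cd86 and Sirpa had fewer than that in culture, so they are in the table only because they were high in the tumour libraries. Among the other 6 genes, 4 were called higher and 2 were not called, and the median change (tumour minus cultured mean, log2) was 1.07. Over the 11696 genes with at least 61 cultured reads, 18.9% were higher and 22.3% lower, and the median was -0.09. With the genes at few cultured reads included, the medians were 5.37 for the 10 genes and 0.08 for all, values that the filter partly sets.

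**Figure D1:**
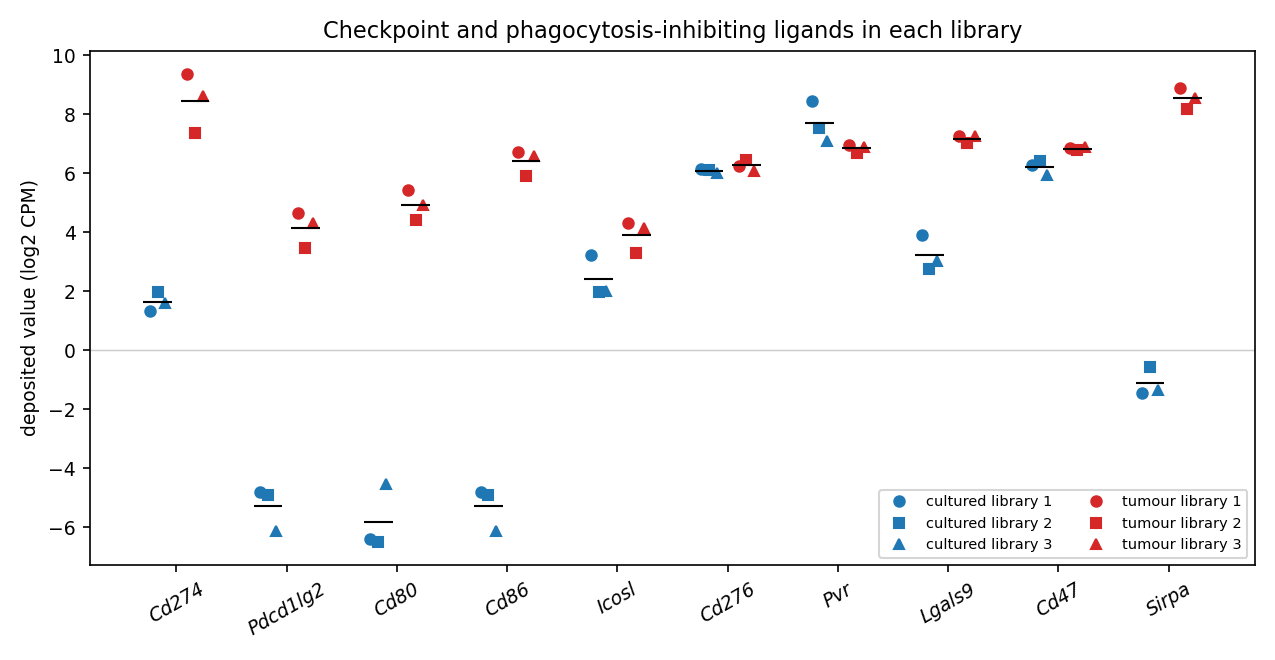
Deposited log2 CPM (vertical axis) of the 10 genes in the 3 cultured (blue) and 3 tumour (red) libraries, with the group mean as a line. Pdcd1lg2, Cd80 and Cd86 lie at the floor of 0 or 1 read in culture, Cd276 overlaps between groups, and tumour library 2 is the lowest tumour library for 9 of the 10 genes.

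Library totals were 35448588 to 41469090 reads. The sorted libraries are labelled as the carcinoma line itself, yet defining markers of other cells were abundant in them, against that label. Lyz2, a lysozyme gene of macrophages and neutrophils, averaged 0.48 ± 0.20 CPM in culture and 2659 ± 406 CPM in the tumour libraries, and the collagen gene Col1a1 1.26 ± 0.54 and 2227 ± 79.4 CPM (SD, n = 3). The summed level of 14 macrophage markers was 28.3 to 38.9 CPM (the deposited log2 values taken back to a linear scale) in culture and 6884 to 10290 CPM in the tumour libraries, and all 14 rose. Dendritic cell and MHC class II markers summed to 10.1 to 27.4 and 5522 to 7813 CPM (10 of 12 rose). Most of that tumour sum was H2-Aa, H2-Ab1, H2-Eb1 and Cd74 (means of 1095, 876, 943 and 3535 CPM). Itgax averaged 327 CPM there, Ccr7 13.5, Cd209a 8.46, Clec9a 1.15, Xcr1 0.66 and Flt3 0.62, and Zbtb46 and Batf3 did not pass. Neutrophil markers summed to 86.3 to 101 and 1473 to 4521 CPM (9 of 9). Mmp9 made up most of their cultured sum, with means of 91.5 CPM in culture and 1090 CPM in the tumour libraries. Fibroblast markers summed to 25.3 to 54.1 and 6647 to 8632 CPM (10 of 10) and endothelial markers to 1.52 to 3.03 and 105 to 160 CPM (9 of 9). Lymphocyte markers summed to 0 to 0.0221 and 5.61 to 7.87 CPM, with 4 of 14 in the table, and all 4 of these rose (Cd4, with 0 cultured reads, at least 124-fold). Reads were 0 in culture for 1 macrophage, 3 dendritic, 2 neutrophil, 3 lymphocyte and 2 endothelial markers. Fewer than 61 cultured reads were found for 10 macrophage, 9 dendritic, 7 neutrophil, 4 lymphocyte, 7 fibroblast and 8 endothelial markers. Such markers are in the table only with their tumour reads, so the counts that rose are partly set by the filter. Over all genes 29.5% were called higher and 18.8% lower, and 18.9% and 22.3% of those with at least 61 cultured reads. The 18 carcinoma epithelial markers summed to 3400 to 4136 CPM in culture and 3050 to 3532 CPM in the tumour libraries. Of these, 9 were lower, 9 were not called and 0 were higher, with a median change of -0.50. The keratin genes Krt18, Krt8 and Krt7 had the largest means of this list in both groups. Krt18 averaged 882 ± 139 and 1055 ± 120 CPM and Krt8 528 ± 311 and 860 ± 121 CPM (SD, n = 3), neither called. Among those called lower, Krt7 averaged 803 ± 166 and 409 ± 46.6 CPM and Cdh1 435 ± 10.3 and 232 ± 26.1 CPM (SD, n = 3). These marker differences move with every rise described here, and their part in it was not tested. In such bulk samples, fewer cells of a type and less RNA per cell cannot be told apart.

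The direction of a modest change also depends on how libraries are scaled. As deposited, 61.1% of called genes were higher in the tumour libraries, against 48.1% when the median of each library was set equal, 35.2% by quantile normalization and 90.5% with the epithelial markers as the scale. The median change of all genes was 0.08 as deposited and -0.14, -0.32 and 0.64 under these scalings, and -0.07 with plain library totals.

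The ligands of PD-1 rose together. In GRCm38 coordinates, Cd274 spans 29367455 to 29388095 of chromosome 19, and Pdcd1lg2 follows on the same strand at 29410919 to 29471161. Cd274 stood at 2.51, 3.89 and 3.04 CPM in cultured libraries 1, 2 and 3 (107, 176 and 106 reads) and at 657, 165 and 391 CPM in tumour libraries 1, 2 and 3. Every tumour library was far above every cultured one, and the tumour libraries spread more than the cultured ones. The log2 change was 6.81 (SE 0.47, limma adjusted p = 1.24e-05), a 112-fold rise with a 95% interval of 52.9 to 237, and 6.10 under quantile normalization.

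Pdcd1lg2 was represented by 1, 1 and 0 reads in the cultured group, in library order, and by 25.1, 10.9 and 20.1 CPM (924, 443 and 760 reads) in the tumour libraries. With 2 cultured reads in all, the ratio of summed reads per scaled total was 1131 (95% counting interval 313 to 9344; intervals of this kind cover counting error only). The change was called by limma (adjusted p = 3.81e-06). Pdcd1lg2 is in the table only with its tumour reads, so the direction of this call is partly set by the filter. An antisense gene in the table, A930007I19Rik, overlaps the 3′ part of Pdcd1lg2, and the sources used here do not say whether counting used strand, so reads in the overlap cannot be told apart. Cd274, Pvr and Cd276 also have annotated genes on the opposite strand, none of which is in the table. The log2 ratio of Cd274 to Pdcd1lg2 CPM, not corrected for length, was 4.71, 3.91 and 4.29 in tumour libraries 1, 2 and 3. In culture this ratio rests on 0 or 1 read of Pdcd1lg2 per library and is not interpreted (difference of the groups -2.62, exact permutation test over libraries, two-sided, p = 0.10, or 0.15 adjusted over the 3 ratios tested; 3 against 3 cannot go below 0.10).

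Cd80 and Cd86, the ligands of CD28 and CTLA-4, were nearly absent in culture. Cd80, on chromosome 16 from 38455561 to 38496335, had 0, 0 and 1 read in the cultured libraries and 43.5, 21.4 and 30 CPM in the tumour libraries. Its ratio of summed reads was 3842 (95% counting interval 689 to 151800; limma adjusted p = 4.53e-06). Cd86, on the minus strand of the same chromosome from 36603869 to 36666081, had 1, 1 and 0 reads in culture and 106, 60.1 and 95.1 CPM in the tumour libraries. Its ratio was 5293 (95% counting interval 1465 to 43710; limma adjusted p = 1.17e-06). Both genes are in the table only with their tumour reads, so the direction of these calls is partly set by the filter. Among the tumour libraries, both were lowest in library 2. The log2 ratio of Cd80 to Cd86, which have nearly the same exon length, was -1.28, -1.49 and -1.66 in tumour libraries 1, 2 and 3, and in culture it rests on 0 or 1 read of each (exact permutation test, two-sided, p = 0.80).

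The other B7 family genes showed smaller differences. Icosl, the ligand of the T cell costimulator ICOS, on chromosome 10 from 78069302 to 78083913, stood at 9.36, 3.93 and 3.96 CPM in culture and 19.8, 9.87 and 17.7 CPM in the tumour libraries. The groups did not overlap, though cultured library 1 came close to tumour library 2. The tumour mean exceeded the cultured mean by 1.52 on the log2 scale (SE 0.42, limma adjusted p = 0.0201), 2.87-fold with a 95% interval of 1.45 to 5.68. Icosl no longer passed when cultured library 2 (change 1.31, adjusted p = 0.0588), tumour library 1 (1.32, 0.0807) or tumour library 3 (1.41, 0.0776) was left out, or under quantile normalization (0.76, 0.135).

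Cd276 (B7-H3), widely made by solid tumours and with a receptor that is still debated, lies on chromosome 9 from 58524298 to 58555437. It stood at 70.8, 68.7 and 64.7 CPM in culture and 75.9, 88 and 67.5 CPM in the tumour libraries, and the groups overlapped. The difference of 0.17 on the log2 scale did not pass (SE 0.15, limma adjusted p = 0.376), and its 95% interval on the fold scale ran from 0.884 to 1.44. It was the 1 gene of the set for which tumour library 2 was the highest tumour library. Its change was -0.05 (adjusted p = 0.792) with medians set equal, and 0.73 (adjusted p = 0.012) with the epithelial markers as the scale, which passes.

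**Figure D2:**
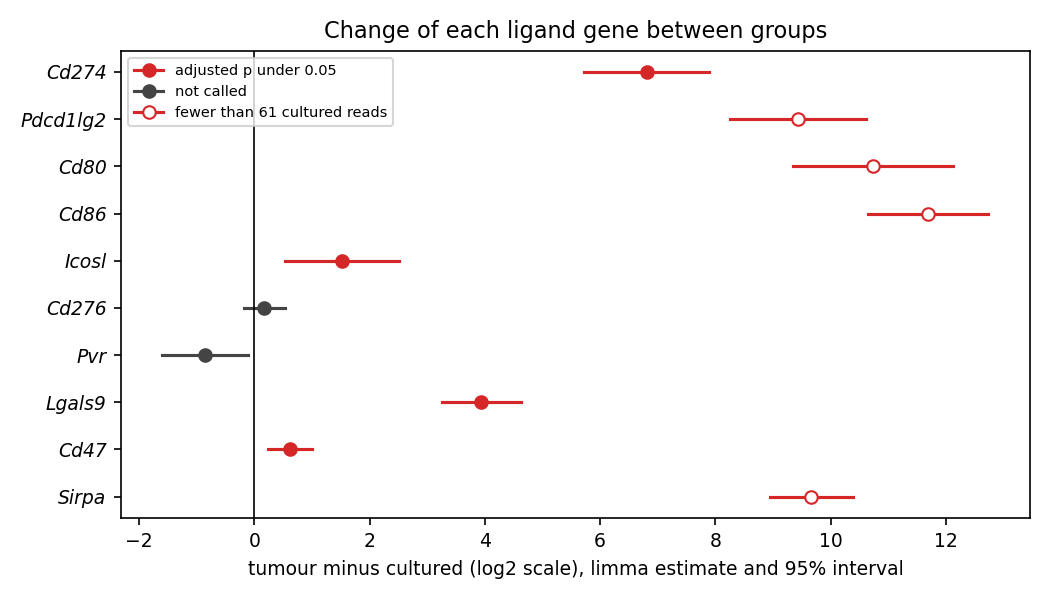
Tumour minus cultured mean on the log2 scale for each gene (horizontal axis), with limma's 95% interval; red marks an adjusted p under 0.05, grey genes were not called, and open points had fewer than 61 cultured reads. For Pdcd1lg2, Cd80 and Cd86 the plotted value depends on the 0.5 reads added before taking logs; Pvr is the only gene whose estimate lies below 0.

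Pvr, a ligand of the inhibitory receptor TIGIT and of the activating receptor CD226, had the highest level of the set in culture. It lies on chromosome 7 from 19903578 to 19921160. Its values were 349, 186 and 137 CPM in cultured libraries 1, 2 and 3 and 124, 102 and 120 CPM in the tumour libraries. Each tumour library lay below each cultured one, but cultured library 3 was near the tumour values and library 1 far above. The log2 change was -0.85 (SE 0.32, limma adjusted p = 0.0607), which did not pass. Pvr was called lower when cultured library 3 was left out (-1.15, adjusted p = 0.00881), when medians were set equal (-1.08, 0.0203), under quantile normalization (-0.90, 0.047), with plain totals (adjusted p = 0.0401) and with library weights (-1.13, 0.00209). The estimate shrank to -0.47 without cultured library 1 and to -0.29 with the epithelial markers as the scale.

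Lgals9 encodes galectin-9, a lectin that binds the receptor TIM-3, and lies on chromosome 11 from 78962974 to 78984946. It rose from 15.1, 6.76 and 8.18 CPM in cultured libraries 1, 2 and 3 to 152, 129 and 153 CPM in the tumour libraries. The tumour libraries lay close together, and their lowest value was several times the highest cultured one. The log2 change was 3.94 (SE 0.29, limma adjusted p = 2.06e-05), 15.3-fold with a 95% interval of 9.53 to 24.6. Among the 6 genes of the set with at least 61 cultured reads, this was the largest rise after that of Cd274.

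Cd47 and its receptor gene behaved differently. Cd47, on chromosome 16 from 49800533 to 49915010, stood at 78.3, 85.4 and 60.9 CPM in culture and at 114, 110 and 117 CPM in the tumour libraries. All tumour values were above all cultured ones, and they lay within 0.09 of each other on the log2 scale. The log2 change was 0.62 (SE 0.16, limma adjusted p = 0.0159), 1.54-fold with a 95% interval of 1.18 to 2.0. Cd47 did not pass when tumour library 1 (0.62, adjusted p = 0.0623) or tumour library 3 (0.60, 0.0696) was left out, with medians set equal (0.40, 0.066) or with plain library totals (0.47, 0.077). With the epithelial markers as the scale the change was 1.18.

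Sirpa, on chromosome 2 from 129592835 to 129632228, had 15, 30 and 13 reads in culture (0.352, 0.663 and 0.373 CPM) and 471, 289 and 377 CPM in the tumour libraries. With 58 cultured reads in all, Sirpa is in the table only with its tumour reads, so its direction is partly set by the filter. The groups lay far apart, by 9.67 on the log2 scale (SE 0.31, limma adjusted p = 7.35e-07), 814-fold with a 95% interval of 495 to 1339. The estimate was below that interval under quantile normalization (8.36 on the log2 scale) and on the log2(CPM + 1) scale (7.998). Sirpa has close paralogs, such as Sirpb1a, between which reads could be split. The log2 ratio of Cd47 to Sirpa within a library, in which the library total cancels, was 7.75, 6.99 and 7.30 in cultured libraries 1, 2 and 3 and -2.04, -1.39 and -1.68 in the tumour libraries. The mean ratio was 7.34 ± 0.38 (SD, n = 3) and -1.70 ± 0.33 (SD, n = 3), and the exact two-sided permutation test gave p = 0.10 (0.15 adjusted over the 3 ratios). The limit from the filter on Sirpa applies to this ratio too. Per kb of exon, Cd47 was above Sirpa in culture (11.9 and 0.0942 CPM per kb) and below it in the tumour libraries (18.2 and 77.1 CPM per kb).

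Divided by exon length, the order of the genes changed between the groups. In culture Pvr was first at 36.6 ± 18.1 CPM per kb, followed by Cd276 at 18.6 ± 0.84, Cd47 at 11.9 ± 2.01 and Lgals9 at 4.69 ± 2.09 (SD, n = 3), and none of these overlapped its neighbour in the order. Icosl (1.25 ± 0.68) and Cd274 (0.869 ± 0.19) overlapped each other, and Sirpa and the 3 genes at 0 or 1 read followed. In the tumour libraries Cd274 led at 112 ± 68.1 CPM per kb, but its range overlapped that of Sirpa at 77.1 ± 18.5, which overlapped that of Lgals9 at 67.8 ± 6.27 (SD, n = 3). Cd86 (23.8), Cd276 (21.1), Pvr (18.8) and Cd47 (18.2) formed a run in which each overlapped the next. Pdcd1lg2 (9.52) and Cd80 (8.55) overlapped too, and Icosl at 3.41 ± 1.13 came last.

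**Figure D3:**
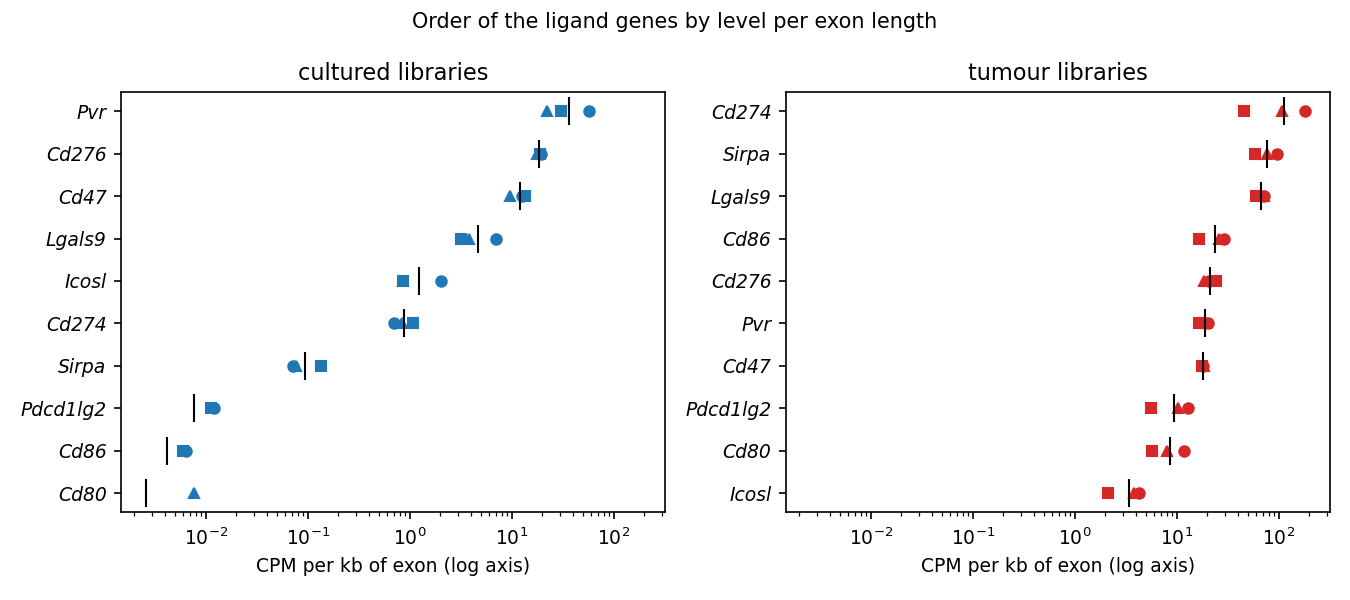
Level per kb of annotated exon (horizontal log axis) of each gene in the 3 cultured (left) and 3 tumour (right) libraries, ordered by the mean (vertical tick); circles, squares and triangles are libraries 1, 2 and 3, and libraries at 0 reads are not drawn. Pvr leads in culture at 36.6 CPM per kb and Cd274 in the tumour libraries at 112 CPM per kb.

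Within the tumour group the genes did not spread alike. Tumour library 2 differed from the mean of libraries 1 and 3 by -1.62 on the log2 scale for Cd274, -1.04 for Pdcd1lg2, -0.92 for Icosl, -0.76 for Cd80, -0.74 for Cd86 and -0.54 for Sirpa. The difference was smaller for Pvr (-0.26), Lgals9 (-0.24) and Cd47 (-0.07), and Cd276 was higher by 0.30. The same library had a median difference of -2.43 for 9 neutrophil markers, -0.45 for macrophage markers and -0.47 for dendritic and MHC class II markers. It was -0.54 for endothelial markers, -0.34 for fibroblast markers, -0.20 for lymphocyte markers and 0.14 for epithelial markers. The part of these cells in the spread of the genes was not tested. Within culture, library 1 was above the mean of libraries 2 and 3 by 1.24 for Icosl, 1.13 for Pvr and 1.02 for Lgals9, and below it for Cd274, by -0.45.

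The profile most like that of Cd274 over the 6 libraries, by Euclidean distance between log2 values centred on each gene's mean, was that of F5, coagulation factor V, at a distance of 0.418. Clec1a (0.638) and Rasgrp2 (0.793) came next, with predicted and clone names left out. In culture, F5, Clec1a and Rasgrp2 had mean log2 values of -3.74, -6.35 and -4.35, near the read floor, against 1.64 for Cd274. Their group differences, and so these distances, depend on the 0.5 reads added. These 3 genes are also in the table only with their tumour reads. For Cd47 the nearest were Fbxo18 (0.0639), Adamts14 (0.0941) and Dock1 (0.114), and for Cd276 they were Prmt2 (0.155), Tead3 (0.159) and Arl3 (0.161). With 3 libraries in each group, likeness is set mostly by the size of the group difference.

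Genes around Cd274 on chromosome 19 are described because Jak2, whose product signals downstream of the interferon gamma receptor, is a close neighbour; this region was chosen after the values had been seen. The table held 13 genes whose lower coordinate lies within 500 kb of that of Cd274. Of the 11 besides Cd274 and Pdcd1lg2, 3 were called higher, 2 lower and 6 not at all, shares near the 29.5% and 18.8% of all genes. Jak2, at -115.6 kb from Cd274, rose by 2.17 (SE 0.19, limma adjusted p = 4.65e-05). Insl6 rose by 2.07 (adjusted p = 0.00221), and Plgrkt, which is transcribed away from Cd274, by 1.03 (adjusted p = 0.00341). Farther upstream, Rcl1 (-1.37, adjusted p = 0.00264) and Ak3 (-0.50, 0.0287) were lower. On the other side of Pdcd1lg2, Ric1 (-0.22, adjusted p = 0.693) and Ermp1 (0.03, 0.907) did not pass.

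**Figure D4:**
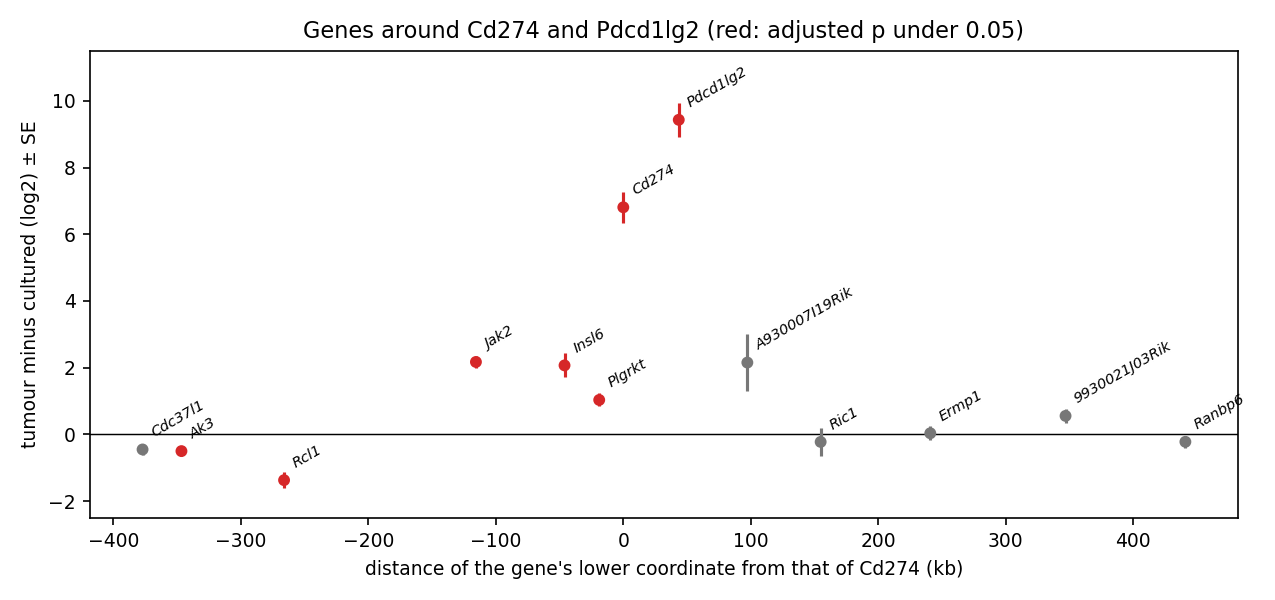
Tumour minus cultured change (log2, ± SE) of the 13 tested genes whose lower coordinate lies within 500 kb of that of Cd274, by distance in kb; red marks an adjusted p under 0.05. Cd274 and Pdcd1lg2 stand at 6.81 and 9.43, Jak2, Insl6 and Plgrkt between 1.03 and 2.17, and the 4 genes beyond A930007I19Rik between -0.22 and 0.56.

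Receptors on the other side of these axes covered a wide range of levels. Of 17 checkpoint receptors listed, 14 were in the table, of which 11 rose, 1 fell and 2 did not pass. Over all genes, 29.5% were called higher and 18.8% lower. Of the 14, 10 had fewer than 61 cultured reads and so passed the filter only with their tumour reads. Among the other 4 there were 2 higher and 1 lower, beside 18.9% and 22.3% of all genes with at least 61 cultured reads. The median change of the 14 was 4.75, or 4.403 where genes at 0 cultured reads were set at their bound. Among risen receptors with at least 61 cultured reads, named after their values were seen, Havcr2, which encodes the galectin-9 receptor TIM-3, went from 3.91 ± 3.42 to 60.2 ± 19.8 CPM (SD, n = 3; change 4.24, limma adjusted p = 0.000602). The other was Tnfrsf9, the costimulator 4-1BB, from 14.4 ± 6.51 to 97.6 ± 35 CPM (SD, n = 3; change 2.83, adjusted p = 0.000885). The 5 largest fitted changes were those of Treml2, Ctla4, Cd226, Lag3 and Cd28, an order that depends on the 0.5 reads added, since all but Lag3 had 0 to 3 cultured reads. Treml2 had 3 cultured reads and a ratio of summed reads of 531 (95% counting interval 181 to 2576), and Cd28 had 1 and a ratio of 98.9 (17.3 to 3948). Ctla4 and Cd226 had 0 cultured reads and reached 1.12 ± 0.35 and 0.741 ± 0.28 CPM (SD, n = 3), at least 45.4-fold and 30.1-fold higher against a floor of 3 reads over the cultured group. Lag3 rose by 5.81 and reached 19 ± 4.07 CPM (SD, n = 3). Under quantile normalization the list had 5 higher and 4 lower, and with only genes at a group mean of at least 1 log2 CPM 4 were higher. The 1 receptor that fell was Tigit, named here after its value was seen, whose ligand is PVR. It stood at 44.2 ± 16.7 CPM in culture and 12 ± 1.92 CPM in the tumour libraries (SD, n = 3), which is -1.83 on the log2 scale (SE 0.29, limma adjusted p = 0.00134).

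A list of other ligands of lymphocyte receptors and related co-signalling genes gave 12 higher and 2 lower of 18 tested (24 listed, median change 3.42). Over all genes, 29.5% were called higher and 18.8% lower. The list also holds the enzyme genes Entpd1, Nt5e and Ido1 and the TNF receptor family genes Tnfrsf14 and Cd40, each of them called higher. Of the 18 tested, 7 had fewer than 61 cultured reads and were in the table only with their tumour reads. The other 11 gave 5 higher and 2 lower, with a median of 0.43, beside 18.9% and 22.3% of all genes so expressed. The 5 largest fitted changes, an order that depends in part on the 0.5 reads added, were those of Entpd1, for the ectoenzyme CD39 (11.97, with 4 cultured reads), Vsir, which encodes VISTA and is listed as 4632428N05Rik (10.01, with 0 reads in cultured library 3), Cd48, Cd200 and the tryptophan-degrading enzyme gene Ido1. Vsir reached 234 ± 55.5 CPM and Entpd1 146 ± 62.5 CPM (SD, n = 3). Cd48, Cd200 and Ido1 had 0 cultured reads and were at least 965-fold, 422-fold and 232-fold higher. The 2 that fell, named after their values were seen, were the butyrophilin gene Btn1a1 (-4.57, limma adjusted p = 0.00123) and Igsf11, a ligand of VISTA (-4.27, 0.0042). Nectin1 and Nectin3, listed as Pvrl1 and Pvrl3, did not pass (0.43 and -0.49).

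Signals and sensors of phagocytosis, the setting of the CD47 axis, rose in 14 of 21 cases and fell in 3 (median change 2.64). The shares over all genes were 29.5% higher and 18.8% lower. The 16 with at least 61 cultured reads gave 9 higher and 3 lower (median 1.64), beside 18.9% and 22.3% of all genes so expressed. The 5 others, in the table only with their tumour reads, all rose and had the 5 largest fitted changes. They are the glucan receptor gene Clec7a (13.41, with 8 cultured reads), Gas6, for the bridging ligand of TAM receptors, Pirb, for a receptor of MHC class I, Sirpb1a and Slamf7. Gas6 had 2 cultured reads and a ratio of summed reads of 4732 (95% counting interval 1309 to 39080), and Slamf7 had 0 and was at least 353-fold higher. Those that fell, again named after their values were seen, were Ptpn11 (-1.16), which encodes a phosphatase recruited by SIRP alpha and PD-1, Axl (-0.68, limma adjusted p = 0.0464) and Siglecg (-1.95). When tumour library 2 or tumour library 3 was left out, or with the epithelial markers as the scale, 1 gene of the list was lower in place of 3.

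Of 13 tested genes that process or degrade these proteins, 3 were higher, 3 lower and 7 not called (median -0.11; 1 lower with the epithelial markers as the scale). These shares lie near the 18.9% and 22.3% of all genes with at least 61 cultured reads, which all 13 had. Cmtm6, which keeps PD-L1 on the cell surface, rose by 1.48 (SE 0.15, limma adjusted p = 0.000132), from 45.1 ± 0.71 to 126 ± 18.2 CPM (SD, n = 3). Its relative Cmtm4 fell by 1.34 (SE 0.14, limma adjusted p = 0.000113), from 270 ± 9.03 to 107 ± 9.25 CPM (SD, n = 3). The sheddase genes Adam10 and Adam17 had changes of 1.17 and 0.65, and Hip1r, which directs PD-L1 to lysosomes, one of -0.74.

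In the interferon gamma pathway list, 21 of 22 genes tested were higher, with a median change of 2.62, and none fell (Ptpn2, -0.15, did not pass). Over all genes, 29.5% were called higher and 18.8% lower. The part of the macrophage, dendritic and other marker differences in these rises was not tested. The 20 with at least 61 cultured reads gave 19 higher and 0 lower (median 2.36), beside 18.9% and 22.3% of all genes so expressed. Cxcl9 and Ciita had fewer cultured reads. The largest changes were those of the chemokine gene Cxcl9 (10.88), Ciita, the activator of MHC class II genes (9.16), Psmb9 of the immunoproteasome (7.72), the GTPase gene Gbp2 (5.98) and the factor Irf7 (5.06). Gbp2, with 7.12 ± 4.22 CPM in culture, reached 407 ± 63.1 CPM (SD, n = 3). The gene of the ligand, Ifng, was not among the genes tested. For this list too, tumour library 2 was the lowest tumour library in 19 of 22 genes, by a median of -0.25.

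**Figure D5:**
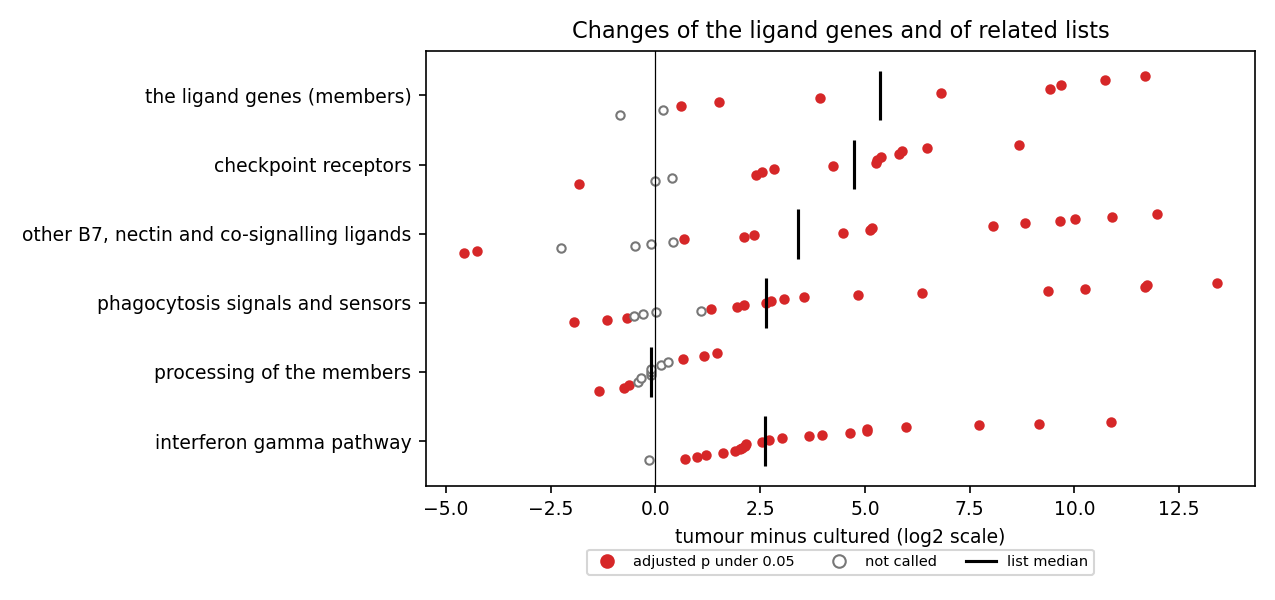
Tumour minus cultured change (log2, horizontal axis) of each tested gene of the set and of 5 related lists; filled red points had an adjusted p under 0.05 and the bar is the list's median. The lists of receptors, other ligands and co-signalling genes, phagocytosis and interferon genes have medians of 2.62 to 4.75. These lists include genes with fewer than 61 cultured reads, so the filter partly sets their medians. Over genes with at least 61 cultured reads the medians are 1.62 (receptors), 0.43 (other ligands and co-signalling genes), 1.64 (phagocytosis) and 2.36 (interferon). The processing list, whose genes all had at least 61 cultured reads, has a median of -0.11.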

How the data were processed

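RNA-seq values of 6 libraries (3 cultured, 3 sorted from tumours) were used. Per the submitters' processing notes, reads were aligned with HISAT to mm10, counted with HTSeq and processed with limma, with no versions given. The authors deposited log2 CPM in the form of voom, with 0.5 reads added and totals scaled by trimmed means of M-values, as the deposited table's name and its values show; genes with few reads had been left out. Solving this form gave whole reads, within 0.01, for 100% of the values, and reads and CPM given here come from that solution.

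Groups were compared with limma 3.58.1 (R 4.3.3) on the deposited values across all genes, with a variance trend, two-sided, and tested on simulated data. Each of the 14 alternatives changed 1 choice: scaling, filter, pseudocount, variance model or library left out. Ratios were tested by exact permutation. Count models were not run, since the deposited unit is log2. Levels per kb use the union of GENCODE M21 exons (GRCm38), which may differ from the annotation the authors counted on. Loci are matched by symbol. The genes and lists were chosen with earlier results of these data known. The text names all 10 genes, up to 5 called genes of each list with the largest change, leading markers and, for 3 genes, the 3 nearest profiles.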

Additional observations from a re-analysis of the deposited data

How the results depend on the processing

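No paired analysis was possible because no number in the labels occurs in both groups. Under 14 alternatives, Cd274, Pdcd1lg2, Cd80, Cd86, Sirpa and Lgals9 kept their direction and call in all 14, though not their size (log2 changes of 6.10 to 7.37 for Cd274, 7.998 to 10.23 for Sirpa and 3.63 to 4.50 for Lgals9; 4.20 to 9.99 for Pdcd1lg2, 4.96 to 11.38 for Cd80 and 6.40 to 12.25 for Cd86, lowest on the log2(CPM + 1) scale). Cd47 and Icosl did so in 10 each, and Pvr and Cd276 in 9 and 12. Pdcd1lg2, Cd80, Cd86 and Sirpa had 2, 1, 2 and 58 cultured reads and are in the table only with their tumour reads. Their direction is thus partly set by the filter, and keeping it in all 14 is not a separate test of the rise. Cd274 and Lgals9, with 389 and 1235 cultured reads, do not have this limit. The 10 genes gave 6 to 9 called higher, with 6 to 8 when 1 library was left out. Called lower was 0 as deposited, 0 to 1 with 1 library left out (1 without cultured library 3), and 1 (Pvr) with medians set equal, quantile normalization, plain totals or library weights. Cd276 turned to -0.0515 with medians set equal. Over all genes 4099 were higher, 3301 to 4625 with 1 library left out and 6232 with the epithelial markers as the scale. Those lower numbered 2612, 1520 to 3301 with 1 library left out (1558 without tumour library 1, 1520 without tumour library 3), 5513 under quantile normalization and 657 with the epithelial markers as the scale. The group difference of Cd274 minus Pdcd1lg2 was -2.62, -3.00 to -2.22 with 1 library left out, and 2.21 on the log2(CPM + 1) scale; that of Cd80 minus Cd86 was -0.95, -1.48 to 0.11 (0.11 without cultured library 3). Both rest on 0 or 1 cultured read. That of Cd47 minus Sirpa was -9.05, -9.23 to -8.84. Causes of these shifts were not tested.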
